A study of Oryza sativa with 3 samples.

Results

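The genes described are 4 leaf aquaporins of rice, OsTIP4;2, OsTIP2;2, OsPIP2;2 and NIP2-2, of 17905 genes listed with a probe set on the array. They were taken by name, through the probe annotation and the synonyms of the gene table, after earlier results of these arrays had drawn attention to them. Their differences between the transgenic lines and the control are therefore a description and carry no test. Leaf RNA was hybridised to Affymetrix rice GeneChip arrays, 1 per sample. The control was wild-type Guichao2, an indica cultivar. The other 2 arrays came from OsEBS-transgenic Guichao2, the lines B10201 and B10301. Each sample pooled the leaves of 10 untreated plants aged 6 weeks, from a greenhouse held at 28 °C on a cycle of 14 h light and 10 h dark. The promoter of the transgene is not given in the sources used here, and with 1 pooled sample per line the spread between lines may be partly technical.

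Aquaporins are channel proteins that let water, and in some cases small neutral solutes, cross membranes along their gradients. In plants, tonoplast intrinsic proteins (TIPs) lie mainly in the vacuolar membrane and plasma membrane intrinsic proteins (PIPs) in the cell's outer membrane. Nodulin 26-like intrinsic proteins (NIPs) carry solutes such as silicic or boric acid, and small basic intrinsic proteins (SIPs) are found on internal membranes. In leaves, PIPs and TIPs are known for the movement of water between the xylem, the mesophyll and the vacuole. Rice accumulates silicon, which its roots take up and its leaves deposit, and NIPs of the NIP2 group carry it.

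Signals are given on the log2 scale of the authors' MAS5 values. A floor was set at the median of all signals, 5.50 on that scale or 45.4 in linear signal. Genes count as measured where the mean over the 3 arrays lay above it, which 14397 genes did. A ratio is the log2 signal of a line less that of the control, and both lines are set against the same control array. The 4 genes keep the names given above, and other aquaporins carry the hyphenated synonyms of the gene table. In 2 stretches of the table the B10301 values stand 1 place away from their probe sets and were moved back. The 4 genes' main probe sets lie outside those stretches.

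The vacuolar membrane aquaporin OsTIP4;2 had the largest difference of the 4 genes. It lies on chromosome 1 and is measured by 1 probe set, an x_at, a suffix that marks probes shared with other sequences. The control gave a signal of 6.08, B10201 7.77 and B10301 7.98. Both lines lay above the control, which itself stood a little above the floor. In linear signal the values were 67.7, 218 and 252. The line values were 3.22-fold and 3.73-fold the control's, with log2 ratios averaging 1.79 ± 0.15 (SD, n = 2 lines).

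OsTIP2;2, a second tonoplast aquaporin, had a far brighter probe set and a smaller difference. It lies on chromosome 6 and is also read by a single x_at probe set. The control gave 12.98, B10201 13.87 and B10301 13.61. Both lines again lay above the control, B10201 by more. The lines stood at 1.86-fold and 1.55-fold the control, with log2 ratios averaging 0.76 ± 0.18 (SD, n = 2 lines).

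OsPIP2;2, a water channel of the plasma membrane, is encoded on chromosome 2 and has 2 probe sets. The s_at probe set, whose probes match more than 1 transcript, read 12.35 for the control, 12.99 for B10201 and 12.87 for B10301. The lines stood at 1.56-fold and 1.43-fold the control, with log2 ratios averaging 0.58 ± 0.09 (SD, n = 2 lines). The at probe set, of the class with no such mark, lay below the floor on each of the 3 arrays. Its values there were 5.42, 4.19 and 3.71, so it gives no ratio.

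That second probe set lies inside a displaced stretch. As deposited, its B10301 value was 7.58, above the floor and 4.48-fold the control. After the move, that value stands with the next probe set of the table.

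NIP2-2, also known as Lsi6, is a silicon transporter known in rice for taking silicic acid out of the xylem in leaves. It lies on chromosome 6 and is read by 1 x_at probe set. The control gave 13.55, B10201 13.60 and B10301 13.67. The 3 values lay close together, with log2 ratios averaging 0.09 ± 0.05 (SD, n = 2 lines), or 1.04-fold and 1.09-fold. With each array centred on its median the ratio was -0.06, but centring moves all genes alike, and NIP2-2 lay 0.11 above the all-gene median with and without it. With quantile normalization the ratio was -0.02, and NIP2-2 lay at -0.02 relative to the all-gene median.

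**Figure D1:**
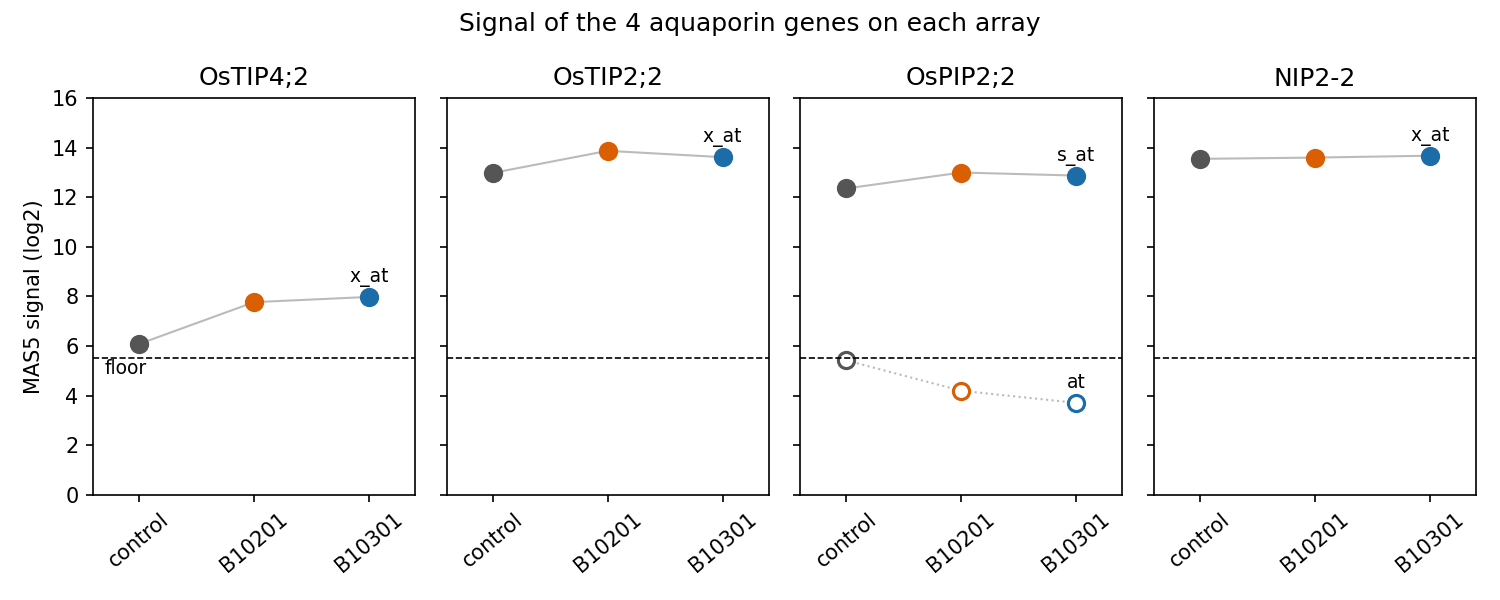
MAS5 signal on the log2 scale (vertical axis) of each probe set of the 4 genes on the 3 arrays (horizontal axis), 1 point per array, with the probe set suffix beside the last point and the floor at 5.50 dashed. Open points are the second probe set of OsPIP2;2, below the floor on each array. The points of OsTIP4;2 go from 6.08 in the control to 7.77 and 7.98, and those of NIP2-2 are nearly level at 13.55 to 13.67.

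The gap between the lines gave a measure of spread at like signal. Signals under the floor were first set to it, so the genes near OsTIP4;2 include measured ones whose control signal lay under the floor. There were 1973 genes whose control signal was then within 1 log2 unit of that of OsTIP4;2. Between the lines they differed by a median of 0.42 and, at the 95th percentile, by 1.44. Both ratios of OsTIP4;2, 1.69 and 1.90, exceeded the latter. At the signal of OsTIP2;2 the 95th percentile was 0.47, below its ratios of 0.89 and 0.64. For OsPIP2;2 it was 0.46, below 0.64 and 0.52. For NIP2-2 the 95th percentile was 0.45 and the median 0.10, against ratios of 0.05 and 0.13, so its difference was within the spread between lines. These comparisons describe genes chosen with earlier results in view and test nothing. Both ratios of a gene share the same control array, whose own spread is not in this measure.

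In rank, 0.528% of measured genes had both ratios at or above the smaller one of OsTIP4;2. The share was 5.95% for OsTIP2;2, 8.38% for OsPIP2;2 and 33.6% for NIP2-2. These shares are over measured genes of all signals, not genes of like signal, and the gap between lines was wider at low signal. Between the 2 lines the 4 genes differed little. B10301 was above B10201 by 0.21 for OsTIP4;2 and 0.08 for NIP2-2, and below it by a log2 difference of -0.26 for OsTIP2;2 and -0.12 for OsPIP2;2. The median absolute difference between lines over all measured genes was 0.18.

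**Figure D2:**
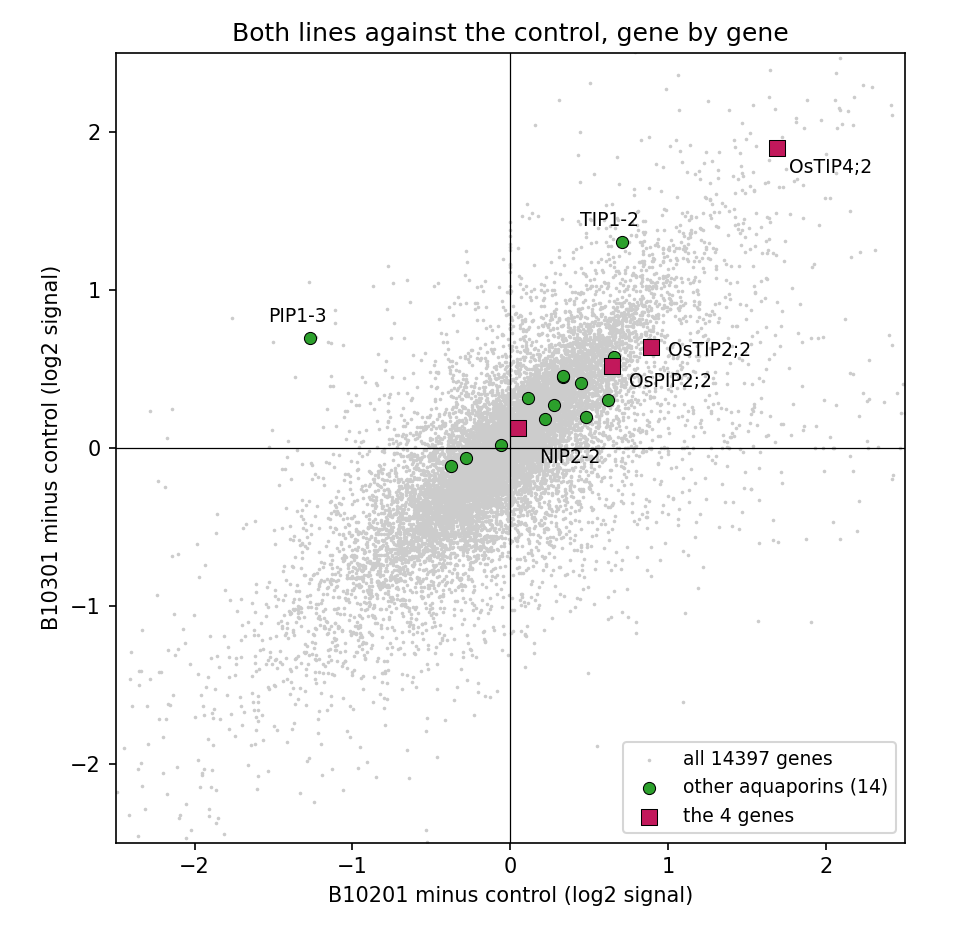
Log2 ratio to the control of B10201 (horizontal axis) and B10301 (vertical axis) for the 14397 measured genes in grey, the 14 other aquaporins as green circles and the 4 genes as red squares. OsTIP4;2 lies far out at the upper right (1.69 and 1.90), NIP2-2 near the origin and PIP1-3 in the upper left. The axes share 1 control array, and 176 genes lie beyond the axis limits of 2.5.

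Genes with a readable symbol were ranked by how near their pair of ratios lay to that of each gene, as a straight-line distance over 2 ratios. For OsTIP4;2 the nearest of 1938 were OsUGE-1 (ratios 1.61 and 1.68, distance 0.24), OsTBL6 (distance 0.27) and LIS (distance 0.27). For OsTIP2;2 they were CPS1 (0.87 and 0.64, distance 0.02), OsSPP1 and CSLC1. PURA2, Os-RSZ21 and PCF7 came nearest to OsPIP2;2, and OsPRR73, Ehd3 and OsPUT1 to NIP2-2. Among all measured genes, named or not, 3 others lay within a distance of 0.1 of OsTIP4;2, 31 of OsTIP2;2, 154 of OsPIP2;2 and 673 of NIP2-2.

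The wider family was taken from a list of 33 rice aquaporin names, of which 29 matched a gene in the gene table and 25 a probe set naming 1 gene. Of these, 18 were measured and 7 lay below the floor in their mean over the arrays. Both lines lay above the control for 14 of the 18 and below it for 2. Over all measured genes, both lines were above the control for 37.8% and below it for 41.6%. The family's median log2 ratio was 0.36, against -0.02 over all measured genes. These all-gene values are over genes of all signals and were not matched to the signals of the aquaporins. Leaving out the 4 genes, 10 of 14 had both lines above the control, with a median of 0.30. This count and median describe a list chosen with earlier results in view.

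OsTIP4;2 was the 1 aquaporin of 18 whose 2 lines both differed from the control by 2-fold or more in the same direction. That was so for 4.61% of measured genes. Of the 14 other aquaporins, limma's moderated test adjusted over all 26475 probe sets above the floor called 0, with a lowest adjusted p of 0.263. At an unadjusted p under 0.05 there were 2, both higher, PIP1-1 (log2 ratios 0.34 and 0.45) and NIP2-1 (0.44 and 0.41). The same unadjusted limma rule took in 10.3% of measured genes on the higher side and 9.89% on the lower, and 0% passed after adjustment in either direction.

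Among the tonoplast aquaporins, 5 of 8 with a probe set were measured, and both lines were above the control for 4, OsTIP4;2 and OsTIP2;2 among them. For TIP1-2 the control gave 8.50, B10201 9.20 and B10301 9.80. That is 1.63-fold and 2.47-fold, or log2 ratios of 0.70 and 1.30, and the 95th percentile of line differences at its signal was 0.95. TIP1-1 was at 13.98, 14.45 and 14.17, and its second probe set, an x_at, also had both lines above the control, by 0.28 and 0.21.

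TIP4-1, a paralogue of OsTIP4;2 on chromosome 5, lay on the other side. The control gave 14.47, B10201 14.09 and B10301 14.35, so both lines were below the control, with ratios of -0.37 and -0.11. Its dimmer probe set, at 7.02 in the control, had ratios of -0.61 and -1.20. In their mean over the arrays, TIP2-1, a paralogue of OsTIP2;2, and TIP3-1 and TIP3-2, of a group known from seeds, lay below the floor. On single arrays TIP3-1 was just above it in the control (5.65) and TIP3-2 in B10201 (5.52). The name TIP4-3 was also listed and matched no gene in the gene table. The 2 probe sets of TIP2-1 reached at most 4.20 on any array.

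Of 10 plasma membrane aquaporins with a probe set, 8 were measured and 5 had both lines above the control, OsPIP2;2 among them. After OsPIP2;2 came PIP2-1, a water channel, with a control signal of 12.89, 13.50 for B10201 and 13.19 for B10301. Its 3 probe sets disagreed: the x_at had ratios of 0.42 and 0.25, and a dimmer at probe set 0.05 and -0.50. PIP1-1 was at 12.57, 12.90 and 13.02, and PIP2-7, with signals of 15.09, 15.20 and 15.41, had ratios of 0.11 and 0.32. PIP2-6 had ratios of 0.22 and 0.18, PIP1-2 of -0.06 and 0.02, and PIP2-5 of -0.28 and -0.06.

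PIP2-1 and PIP2-5 are adjacent in the gene table on chromosome 7, and 1 gene separates them from PIP2-4. By the brightest probe set of PIP2-1, its B10201 ratio of 0.62 exceeded the 95th percentile of line differences at its signal, 0.46, and its B10301 ratio of 0.30 did not. Both ratios of PIP2-5 were within that spread at its signal (95th percentile 1.42), and PIP2-4 was below the floor on each array. A difference between these neighbours was not tested.

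The lines parted over PIP1-3, a plasma membrane water channel also called RWC3. The control gave 9.20, B10201 7.93 and B10301 9.89. B10201 was thus 2.41-fold below the control, while B10301 was 1.62-fold above it. The lines stood 3.90-fold apart, and a gap this large was seen in 0.702% of measured genes. It was the 1 aquaporin of 18 at least 2-fold apart between the lines, against 4.15% of measured genes, and the other 17 differed by at most 0.60. PIP1-3 and PIP1-2 were the 2 aquaporins with a line on each side of the control, a split seen in 20.2% of measured genes. With 1 array per line this difference has no test, and the B10301 value is one that was moved.

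Each of the 3 measured NIPs, NIP2-2 among them, and both SIPs had both lines above the control, as did 37.8% of all measured genes. The median log2 ratios were 0.43 for the NIPs and 0.33 for the SIPs, beside 0.76 for the TIPs and 0.21 for the PIPs. For NIP1-1 the control gave 7.60, B10201 8.26 and B10301 8.18, with log2 ratios averaging 0.62 ± 0.06 (SD, n = 2 lines), below the 95th percentile of 1.26 at its signal. NIP2-1, or Lsi1, known as the silicon influx transporter of rice roots, was at 9.74, 10.18 and 10.15. Its ratios were 0.44 and 0.41. SIP1-1 had ratios of 0.27 in each line, and SIP2-1 of 0.33 and 0.46. NIP3-1, known as a boron transporter in rice, and NIP4-1 lay below the floor.

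**Figure D3:**
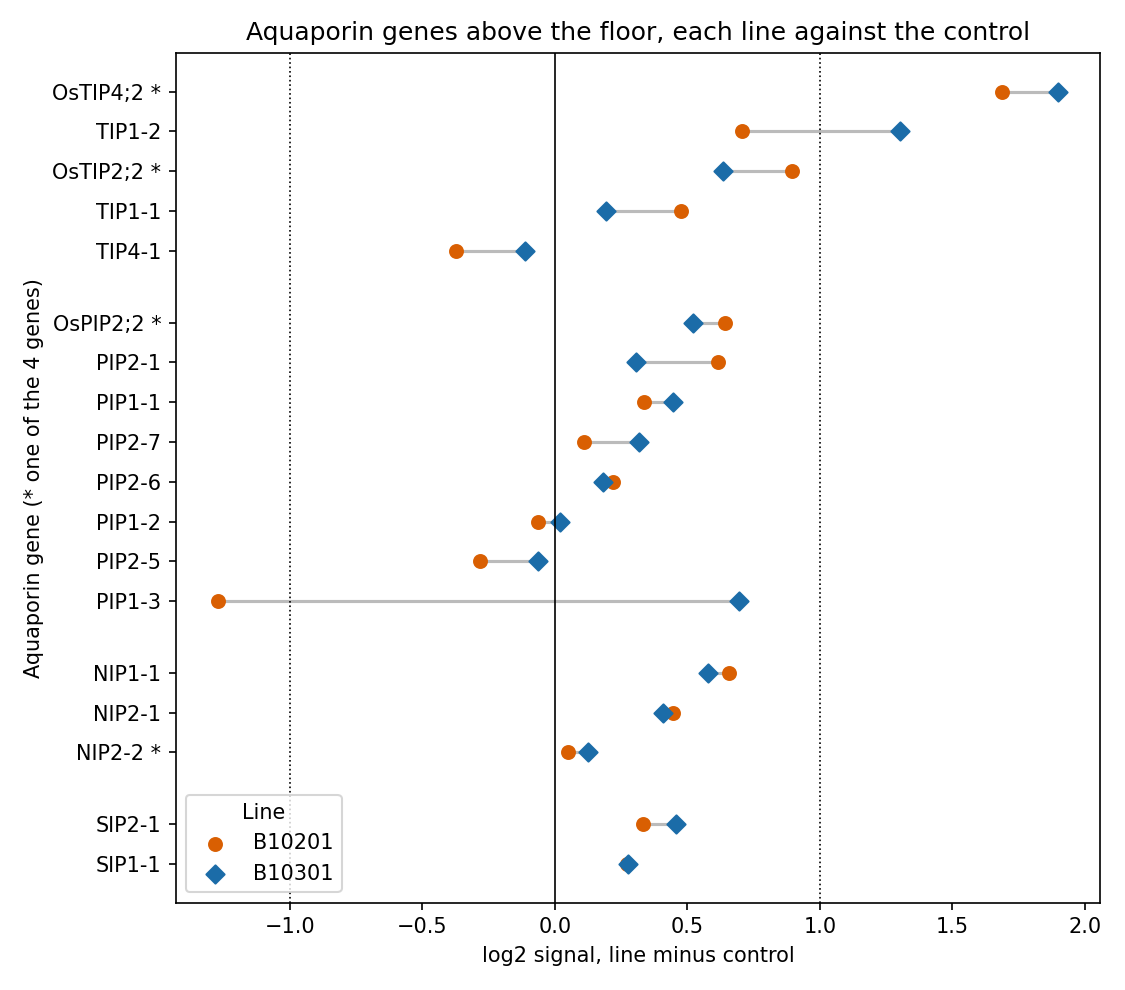
Log2 ratio to the control (horizontal axis) of B10201 (circles) and B10301 (diamonds) for the 18 measured aquaporins, grouped from top to bottom as TIP, PIP, NIP and SIP, with dotted lines at 2-fold and asterisks at the 4 genes. Both points lie right of 0 for 14 genes, OsTIP4;2 alone has both beyond 2-fold, and the points of PIP1-3 lie on opposite sides.

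Silicon transport and vacuolar ion channels were examined beside the channels. Of the 3 silicon transporter genes found, Lsi1 and Lsi6 are the NIPs given above, and Lsi2, the silicon efflux transporter, lay below the floor on each array (2.49 for the control, 1.64 for B10201 and 0.86 for B10301). Of 7 vacuolar ion channel and exchanger genes measured, 3 had both lines above the control and 3 below, with a median log2 ratio of -0.10. Over all measured genes those shares were 37.8% and 41.6%. The exchanger CAX1b had ratios of -0.70 and -0.41, its relative CAX1a 0.38 and 0.36, the potassium channel TPKA 0.40 and 0.31, and the second potassium channel TPKB 0.03 and -0.51. limma called 0 of these 7, and 0% of all measured genes. At an unadjusted p under 0.05 there were also 0, against 10.3% of measured genes on the higher side and 9.89% on the lower. The names used for vacuolar and plasma membrane proton pumps matched 0 genes.

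The labelled tissue was set against marker genes. Of 15 leaf mesophyll genes with a probe set 14 were measured. Both lines were above the control for 7 of them and below it for 3, and 4 had a line on each side, with a median log2 ratio of 0.22. Over all measured genes those shares were 37.8%, 41.6% and 20.2%. The chlorophyll-binding protein gene CAB2R had ratios of -1.46 and -0.24, and GLO1, a glycolate oxidase gene, 0.46 and 0.75. The summed linear signal of the 14 was 313000 for the control, 312000 for B10201 and 387000 for B10301. Of 5 root genes 2 were measured, Lsi1 itself and SCR1, whose signal was 7.47 in the control and 6.23 and 6.05 in the lines. The summed linear signal of these 2 was 1030 for the control, 1240 for B10201 and 1200 for B10301, and the 3 probe sets of OsCASP1, a root endodermis gene, lay below the floor on each array, 1 of them at 0 in the control. Of 8 seed storage genes with a probe set 2 were measured, with a median log2 ratio of -0.03, and their summed linear signal was 1250, 1450 and 1500. Of 10 flower genes 4 were measured, 0 with both lines above the control and 3 with both below, and their summed linear signal was 3080, 2220 and 2390. The part of leaf, root, seed or flower marker differences in the aquaporin ratios was not tested. In bulk leaf RNA, fewer cells of a type and less RNA per cell cannot be told apart.

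Displaced values touched 8 probe sets of 8 aquaporin genes. In windows of 101 probe sets around each, B10301 correlated with the mean of the other arrays at -0.09 to 0.18 as deposited and at 0.73 to 0.98 after the move. The control and B10201 correlated at 0.72 to 0.96 in the same windows. Probe sets are not independent replicates, so these correlations describe the table and test nothing.

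The move changed what the table seems to say about single genes. As deposited, PIP2-4 in B10301 was at 10.62, 175-fold the control, and after the move at 5.50, just under the floor. PIP1-3 was 14.9-fold the control as deposited. SIP1-1 stood at 3.08 as deposited and 11.59 after the move, beside 11.31 in the control and 11.59 in B10201. NIP2-1 went from 6.86 to 10.15. TIP1-2 hardly changed, at 9.77 and 9.80. Over the 14 measured aquaporins outside the stretches, 11 had both lines above the control, with a median log2 ratio of 0.36.

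**Figure D4:**
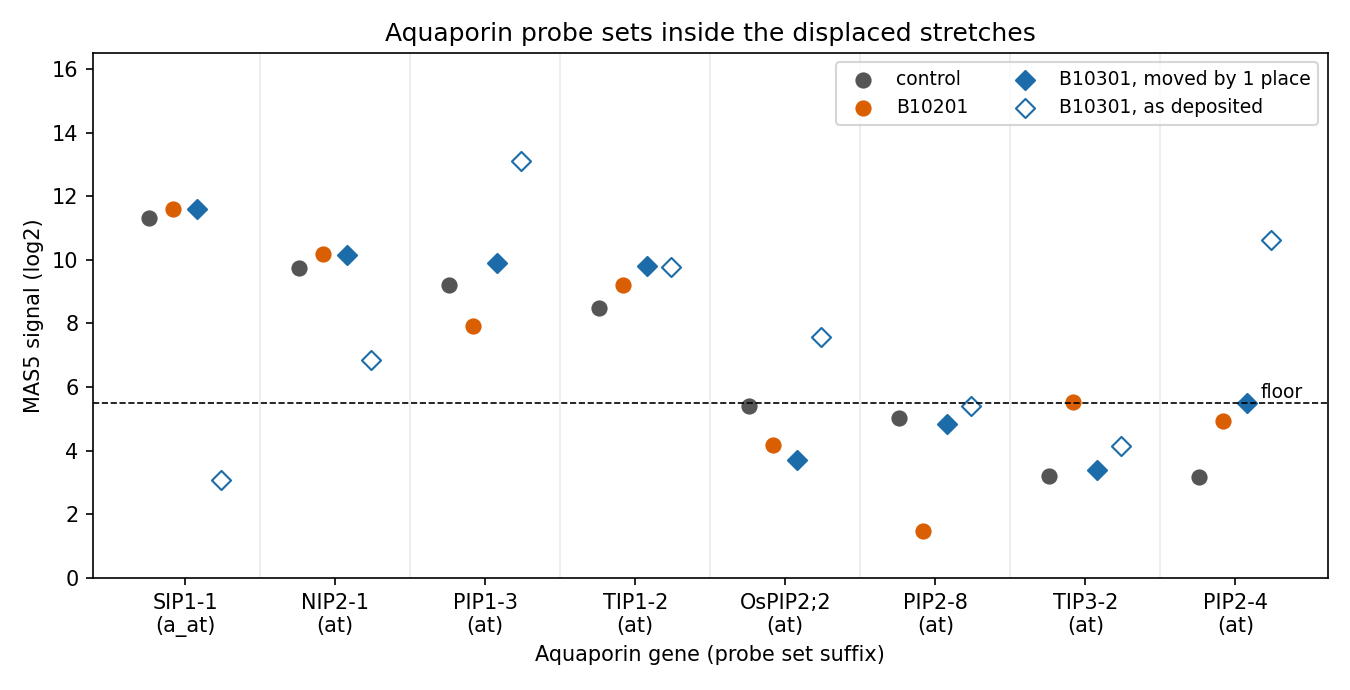
MAS5 signal on the log2 scale (vertical axis) for the 8 aquaporin probe sets inside the displaced stretches (horizontal axis), with the control in grey, B10201 in orange, B10301 after the move as filled diamonds and B10301 as deposited as open diamonds, and the floor at 5.50 dashed. The open diamonds of SIP1-1 (3.08), PIP1-3 (13.10) and PIP2-4 (10.62) stand far from the other arrays, and the filled ones lie closer.

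The 4 genes' ratios rest on probe sets that may read other transcripts: each of the 4 is measured by an x_at or s_at probe set, against 0 of the 14 other measured aquaporins and 12.1% of all measured genes. The part of cross-hybridisation was not tested.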

How the data were processed

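Leaf RNA was hybridised to 3 Affymetrix rice arrays. The values are log2 signals as the authors deposited them, computed by MAS5 per the submitters' processing notes. The version, scaling target and detection calls are not given in the sources used here. Groups came from the genotype in the labels. Precision is limited by the number of arrays (3). After the move below, array medians were 5.41, 5.56 and 5.54, and 2% trimmed linear means 497.5, 497.4 and 497.4.

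In B10301, 2 stretches of 6717 and 988 of the 57194 probe sets took the value 1 row above, and their correlation with the other arrays went from 0.397 to 0.939 and from 0.051 to 0.823. Signals under the overall median were set to that median, the floor, and 26475 probe sets had a mean above it. limma 3.58.1 (R 4.3.3), with a trend on intensity, used all 3 arrays and 1 residual degree of freedom (two-sided, Benjamini-Hochberg 0.05), taking the control's variance to equal that of the lines. It was tested on simulated data drawn with a common variance. In these data the gap between lines was wider at low signal, so the simulation does not show how the fit performs here. Other steps used Python 3.11.15, numpy 2.4.6, scipy 1.17.1, pandas 2.3.3 and matplotlib 3.10.9. Names came from the platform annotation and the ASM3414082v1 gene table. On the array 22436 probe sets had 1 gene, 95 several (2 of them with an aquaporin) and 34663 none, and the last kinds were left unnamed. A gene was represented by its probe set of highest mean. Named genes were the 4 genes, the other aquaporins, the 3 nearest patterns per gene, and examples from lists. Members and lists were chosen with earlier results of these data known. Alternatives were other floors, scalings, probe set choices and treatments of the stretches.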

Additional observations from a re-analysis of the deposited data

Results flagged for a closer look

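PIP1-3 had its lines on opposite sides of the control. B10301 was above B10201 by 1.97 on the log2 scale, with ratios to the control of -1.27 in B10201 and 0.69 in B10301. The difference was not tested, since each line has 1 array. Lines at least 2-fold apart made up 4.15% of measured genes.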

How the results depend on the processing

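The ratios of OsTIP4;2, OsTIP2;2 and OsPIP2;2 stayed positive in every setting that gave a value. Centring each array on its median moved the all-gene median by -0.144, and there OsPIP2;2 was at 0.436, and NIP2-2 was at -0.056, though 0.11 above the all-gene median as before. With quantile normalization NIP2-2 was at -0.024. Without B10201 or without B10301, the mean ratio ranged from 1.69 to 1.90 for OsTIP4;2, 0.636 to 0.893 for OsTIP2;2, 0.52 to 0.643 for OsPIP2;2 and 0.051 to 0.127 for NIP2-2. Without x_at and s_at probe sets none of the 4 has a value, and with the floor at the 75th percentile OsTIP4;2 has none. Aquaporins that differed 2-fold or more in both lines numbered 2 of 25 with the floor at the 25th percentile or without a floor, adding PIP2-4. They numbered 0 of 15 with the 75th percentile and 0 of 14 without x_at and s_at probe sets. With either line alone there were 2: OsTIP4;2 with TIP1-2 in B10301, and with PIP1-3, lower, in B10201. The aquaporin median, 0.363 here, was 0.391 as deposited, 0.334 with the floor at the 25th or 75th percentile or none, 0.31 with quantile normalization, 0.217 when centred (0.382 above the all-gene median, as here), 0.304 without x_at and s_at, 0.281 with a gene's measured probe sets averaged, and 0.334 to 0.363 with 1 line left out. With centring or quantile normalization both lines were above the control for 12 of 18 aquaporins, against 26.3% and 39.0% of all genes. Aquaporins at least 2-fold apart between the lines numbered 4 of 19 as deposited and 4 of 25 with the floor at the 25th percentile or none. They numbered 0 of 14 with the stretches left out, where PIP1-3 has no value. The all-gene shares for these 2-fold counts, 4.61% and 4.15%, belong to the setting reported and are not given for the others. Whether these shifts go beyond those of all genes was therefore not examined. limma called 0 aquaporins in each of the 13 settings tried, with 2 of the 14 other than the 4 genes at an unadjusted p under 0.05 in the setting reported. The limma count includes the 4 genes, which carry no test. It is not particular to aquaporins, since in the setting reported all measured genes failed the adjusted threshold. No pairs could be formed, since both lines are set against 1 control array. Floors decide what can be said of dim probe sets such as the second one of OsPIP2;2.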
